A study of Mus musculus with 4 samples.

Results

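The genes described here bring amino acids into the cell, make them, or join them to their transfer RNAs. They are 37 of the 17712 genes measured in single cells of the mouse stomach, and they were chosen by name for these functions. The set holds 20 aminoacyl-tRNA synthetases of the cytosol (the products of Gars and Kars also serve mitochondria), 7 amino acid transporters, 6 genes of asparagine synthesis, serine synthesis and the mitochondrial folate pathway, 2 genes of proline synthesis and 2 genes of transsulfuration. All 37 were found in the data, with the methionine enzyme Mars1 listed under its older symbol Mars.

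The cells came from female Rosa26iH2b-GFP mice, in which a Tet-on transgene under the EF1a promoter allows doxycycline to induce GFP-tagged histone H2b. The mice received doxycycline for 4 weeks, were chased for 6 weeks without it and were 14 weeks old. Every library therefore shares the transgene and the treatment. Live Cd31-negative and Cd45-negative stomach cells were sorted either as Epcam+ epithelial cells or as GFP+ cells within the Epcam+ gate, the latter being those that had kept label. There were 2 libraries of each sort, named here Epcam+ 1, Epcam+ 2, GFP+ 1 and GFP+ 2, and the cells loaded came from 2 mice combined. The sources used here do not tie a library to an animal, so a p given here speaks to differences among the libraries, and those may be technical in origin.

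Each synthetase charges the transfer RNA of its own amino acid (of 2 amino acids for Eprs, while Farsa and Farsb encode the subunits of 1 enzyme), and ribosomes cannot read that amino acid's codons without it. Cells that export large amounts of protein, such as the chief cells that secrete pepsinogen and other digestive enzymes, draw heavily on this supply. The transcription factor Atf4, which is translated more when amino acids run short or when unfolded protein builds up, is known to raise many of these genes together. It binds as a dimer with C/EBP proteins to a composite element in their promoters. Asns was also among the Atf4-regulated genes that the study displayed from these same libraries, so its level is not an independent observation.

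The files gave counts of unique molecular identifiers (UMIs) in 4449 cells, with between 35571141 and 79455225 UMIs per library. The authors' 10 clusters were used: neck cells (cluster 0), chief cells (clusters 1 and 5), pit cells (cluster 2), isthmus cells (clusters 3 and 4), endocrine cells (clusters 6 and 7), parietal cells (cluster 8) and tuft cells (cluster 9). Of the 10 chief markers looked at, 10 were at least 2-fold above neck cells in every library in cluster 1 and 9 in cluster 5. The 5 neck markers were lower than in neck cells by that measure in cluster 1, and none was in cluster 5. Cluster 5 also held pit transcripts, with 4 of 5 pit markers higher than in neck cells by that measure, and 13.3% of its cells were called doublets, against 1.66% of all cells. The cells of 4 barcodes occurred in more than 1 library. Cluster 1 held 200, 294, 145 and 257 cells in Epcam+ 1, Epcam+ 2, GFP+ 1 and GFP+ 2, at medians of 124386, 104376, 163589 and 165757 UMIs per cell. In this cluster the 3 genes Clps, Pla2g1b and Pgc took 81.7% to 82.6% of all UMIs, so that every other gene has a low share of the total. Levels across clusters were therefore scaled by TMM (trimmed mean of M-values), which sets most genes equal between clusters, and are given as TMM-normalized CPM (counts scaled to a common library total) of the UMIs summed per library and cluster. They are descriptions with no test, because the clusters were built from these genes among others.

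On TMM-normalized CPM, chief cells of cluster 1 had the highest mean of all clusters for 30 of 37 genes. This depended on the scale, since in UMIs per cell it was so for 8 genes, and as a share of all UMIs for 0. The share of all genes with their highest mean in cluster 1 was not counted, so these counts have no background beside them. In cluster 1, 18 of 37 genes (48.6%) were at least 2-fold above neck cells in every library, and 0 were 2-fold below. Over all 13154 genes compared, 6.33% were at least 2-fold above and 8.7% at least 2-fold below. The 17 genes that supply amino acids stood further apart than the synthetases, with 11 of 17 against 7 of 20 past 2-fold. The median log2 ratio of cluster 1 to neck cells was 1.74 for the supply genes, 0.85 for the synthetases and -0.03 for all genes.

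**Figure D1:**
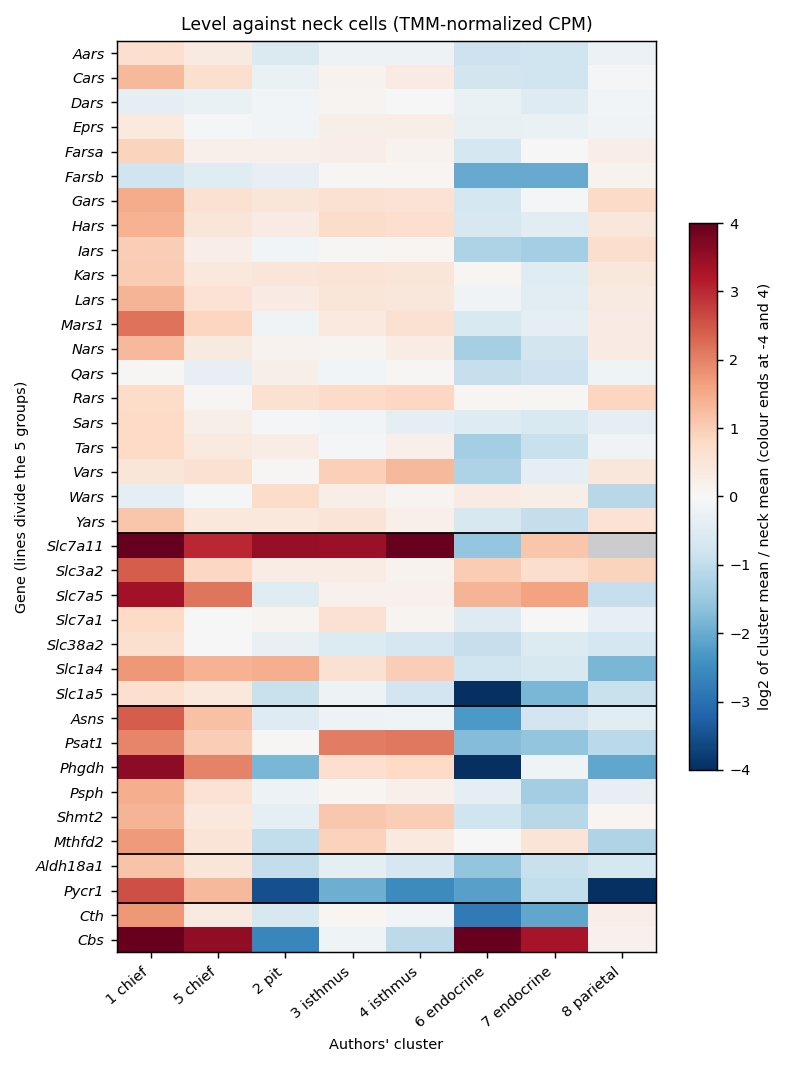
Mean level of each of the 37 genes in 8 clusters (columns) as the log2 ratio to the mean in neck cells, on TMM-normalized CPM, with red for higher and blue for lower. Black lines divide the synthetases, the transporters, the asparagine, serine and folate genes, the proline genes and the transsulfuration genes, and a grey cell marks a gene listed at 0. The first column, cluster 1, is red for most genes, and Cbs is also red in endocrine clusters 6 and 7.

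Asns encodes asparagine synthetase, which makes asparagine from aspartate and glutamine. In neck cells it stood at 165, 136, 169 and 163 TMM-normalized CPM in Epcam+ 1, Epcam+ 2, GFP+ 1 and GFP+ 2. In cluster 1 it stood at 832, 808, 872 and 887 in the same order. No cluster 1 library overlapped a neck library, and the ratio of the means was 5.38. In UMIs per cell, Asns averaged 23.5 ± 5.47 in cluster 1 and 5.87 ± 1.28 in neck cells (SD, n = 4 libraries).

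Phgdh encodes phosphoglycerate dehydrogenase, the first enzyme of serine synthesis from glucose. It stood at 12.8, 11, 19 and 13 TMM-normalized CPM in neck cells and at 155, 178, 149 and 192 in cluster 1, in the order Epcam+ 1, Epcam+ 2, GFP+ 1 and GFP+ 2. The groups lay far apart, with a ratio of means of 12. The next enzymes of the same route were less far above neck cells. Psat1, the aminotransferase of the second step, stood at 12.4, 21.5, 14.4 and 26.6 in cluster 1 against 4.51 to 5.12 in neck cells. It was as high in isthmus cells, at 19.2 ± 1.37 in cluster 3 and 20 ± 1.66 in cluster 4 (SD, n = 2 libraries). Psph, the phosphatase of the last step, averaged 26.3 ± 6.34 in cluster 1 and 9.63 ± 1.7 in neck cells (SD, n = 4), and did not reach 2-fold in every library. Shmt2 and Mthfd2, which pass the carbon of serine to folate in mitochondria, averaged 18.3 ± 0.939 and 105 ± 29.2 in cluster 1 against 7.17 ± 1 and 32.6 ± 3.8 in neck cells. Mthfd2 was just short of 2-fold in 1 library, where its ratio was 1.99.

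Proline is made from glutamate by Aldh18a1 and then by a reductase such as Pycr1. Pycr1 stood at 11.9, 7.8, 18 and 13 TMM-normalized CPM in neck cells and at 69.4, 70.5, 79.9 and 86.2 in cluster 1, with no overlap and a ratio of means of 6.03. It was lower than in neck cells outside the chief clusters, at 1.11 ± 0.24 in pit cells (SD, n = 4) and at 2.56 ± 0.22 and 1.67 ± 0.03 in isthmus clusters 3 and 4 (SD, n = 2). Aldh18a1 averaged 39.4 ± 7.37 in cluster 1 and 17.9 ± 3.24 in neck cells.

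Transsulfuration turns homocysteine into cysteine, first by cystathionine beta-synthase (Cbs) and then by cystathionine gamma-lyase (Cth). Cbs showed the most marked contrast of the whole set. It stood at 1.89, 1.36, 1.23 and 2.54 TMM-normalized CPM in neck cells and at 81.5, 66, 70.7 and 72 in cluster 1, a ratio of means of 41.4. Endocrine cluster 6 also held it, at 47, 51.6, 49.9 and 59.8, whereas pit cells held 0.29 ± 0.14 (SD, n = 4). Chief and endocrine cells thus shared a high level that neck, pit and isthmus cells lacked. Cth behaved differently in endocrine cells. It averaged 56 ± 12.5 in cluster 1, 16.7 ± 2.18 in neck cells and 2.34 ± 0.53 in cluster 6. In cluster 6, then, Cth RNA was low and Cbs RNA high, while cluster 1 held both at high levels.

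**Figure D2:**
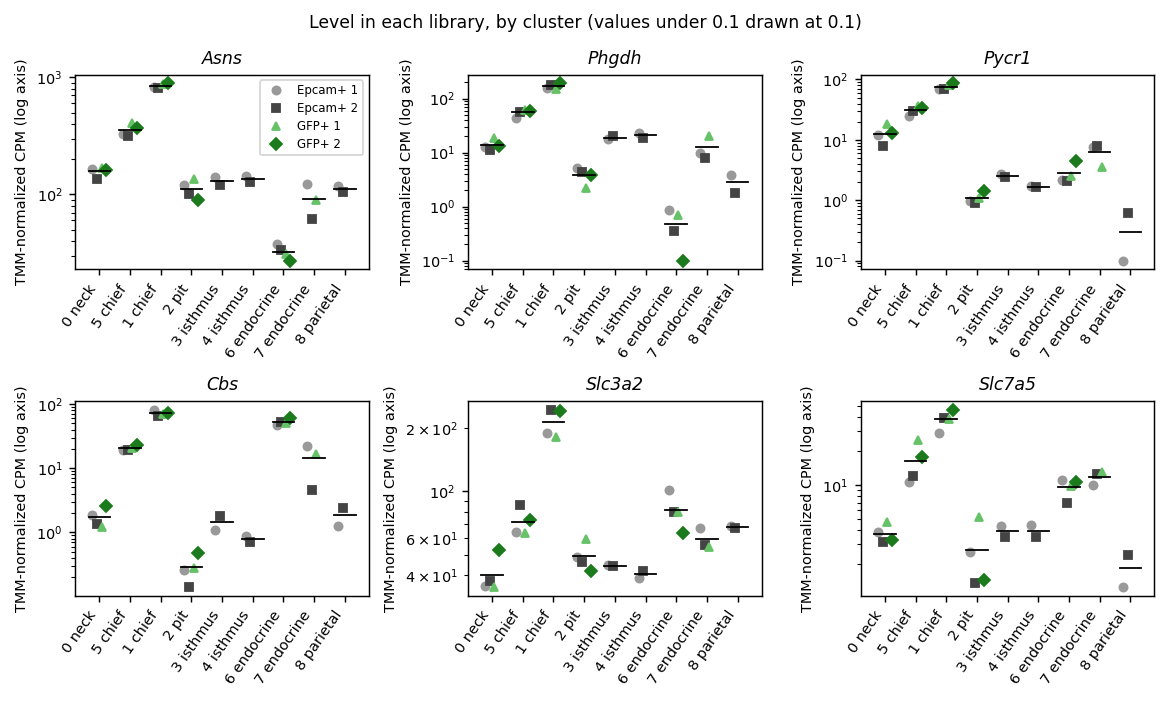
TMM-normalized CPM (log axis) of Asns, Phgdh, Pycr1, Cbs, Slc3a2 and Slc7a5 in each library (points) and the mean over libraries (line), by cluster, with values under 0.1 drawn at 0.1. The mean of each gene is highest in chief cluster 1, cluster 5 lies between neck cells and cluster 1, and Cbs is also high in endocrine cluster 6.

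Among the transporters, the light chain Slc7a5 (LAT1) and the heavy chain Slc3a2, which pair to import large neutral amino acids such as leucine, were both higher in cluster 1. Slc7a5 stood at 3.84, 3.12, 4.71 and 3.26 TMM-normalized CPM in neck cells and at 28.6, 39, 38 and 46.3 in cluster 1. Slc3a2 stood at 35.5, 37.4, 35.2 and 52.5 in neck cells and at 189, 244, 181 and 242 in cluster 1. The ratios of means were 10.2 and 5.33, and neither gene's libraries overlapped. Slc7a11, the light chain that pairs with Slc3a2 to import cystine, was measured in only 484 UMIs over all cells. In cluster 1 it had 19, 30, 19 and 95 UMIs, and in the larger neck cluster 0, 5, 1 and 2 UMIs, in the same library order. It counts as 2-fold above in every library, but no fold is given, since neck cells of Epcam+ 1 held none. Slc1a4, a carrier of small neutral amino acids such as serine and alanine, averaged 8.22 ± 1.22 in cluster 1 and 2.46 ± 0.35 in neck cells. The remaining transporters stood closer to neck cells. The glutamine carriers Slc1a5 and Slc38a2 had ratios of means of 1.59 and 1.57, and the cationic amino acid carrier Slc7a1 had 1.75. Slc38a2 had the most UMIs of the transporters in cluster 1, where its level was 383 ± 33.5 TMM-normalized CPM (SD, n = 4). Slc1a5 was nearly absent from endocrine cluster 6, at 1.45 ± 1.06 against 32.7 ± 3.44 in neck cells (SD, n = 4).

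The synthetases stood closer to neck cells and not as a block. In cluster 1 the 7 past 2-fold in every library were those for cysteine (Cars), glycine (Gars), histidine (Hars), leucine (Lars), methionine (Mars1), asparagine (Nars) and tyrosine (Yars). Mars1 stood furthest out, at 17.8, 16.1, 20.3 and 17.4 TMM-normalized CPM in neck cells and 78.5, 75.3, 83 and 83.1 in cluster 1, a ratio of means of 4.47. Nars, the synthetase with the most UMIs in cluster 1, stood at 70.1, 59.9, 75.6 and 79.7 in neck cells and at 174, 172, 180 and 176 in cluster 1. For these genes the cluster 1 libraries lay above all neck libraries. Another 4 members had ratios of means near or under 1. The tryptophan enzyme Wars averaged 24.5 ± 2.62 in cluster 1 and 31.8 ± 3.94 in neck cells, and was highest in pit cells at 53 ± 3.78. The glutamine enzyme Qars averaged 32.1 ± 4.18 against 30.8 ± 3.48 in neck cells. The aspartate enzyme Dars averaged 28.4 ± 2.07 against 37.6 ± 2.23. The 2 subunits of the phenylalanine enzyme went different ways, with Farsa at 38.5 ± 6.21 in cluster 1 and 20.8 ± 2.23 in neck cells, and Farsb at 38.4 ± 4.29 and 66.8 ± 11.4. The other 9 synthetases (Aars, Eprs, Farsa, Iars, Kars, Rars, Sars, Tars and Vars) had ratios of means between 1.32 and 2.01. The 16 mitochondrial synthetases had a median log2 ratio of 0.12, and 0 were 2-fold apart in either direction. The 6 scaffold and tRNA charging partner genes had a median of 0.53, with 0 past 2-fold.

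The height of chief cells over neck cells depended on the scaling, which multiplies all genes of a library and cluster by 1 factor. Counted against all UMIs of cluster 1, including Clps, Pla2g1b and Pgc, only Slc7a11 and Cbs were 2-fold above neck cells in every library and 21 genes (56.8%) were 2-fold below. On that scale 0.753% of all genes were above and 82.3% below. With those 3 genes left out of the totals, 11 genes (29.7%) were 2-fold above, against 3.6% of all genes, and 1 (Farsb) was 2-fold below, against 15.4%. In UMIs per cell 10 genes (27%) were 2-fold above and 0 below, against 3.66% of all genes above and 14.7% below. These 10 genes were Mars1, Slc7a11, Slc3a2, Slc7a5, Slc1a4, Asns, Phgdh, Pycr1, Cth and Cbs, and they were past 2-fold on each scale except that of all UMIs. Summed per cell, the 17 supply genes gave 60.2 ± 13.2 UMIs in cluster 1 and 23.3 ± 5.26 in neck cells (SD, n = 4 libraries). The 20 synthetases gave 34.4 ± 7.27 and 27 ± 4.3, with the ranges of the libraries overlapping and cluster 1 above neck cells within each of the 4 libraries. Pit and parietal cells, at 52 ± 14.8 and 51.5 ± 7.2, and isthmus clusters 3 and 4, at 49.5 ± 2.96 and 60 ± 5, held more synthetase UMIs per cell than cluster 1 on average.

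**Figure D3:**
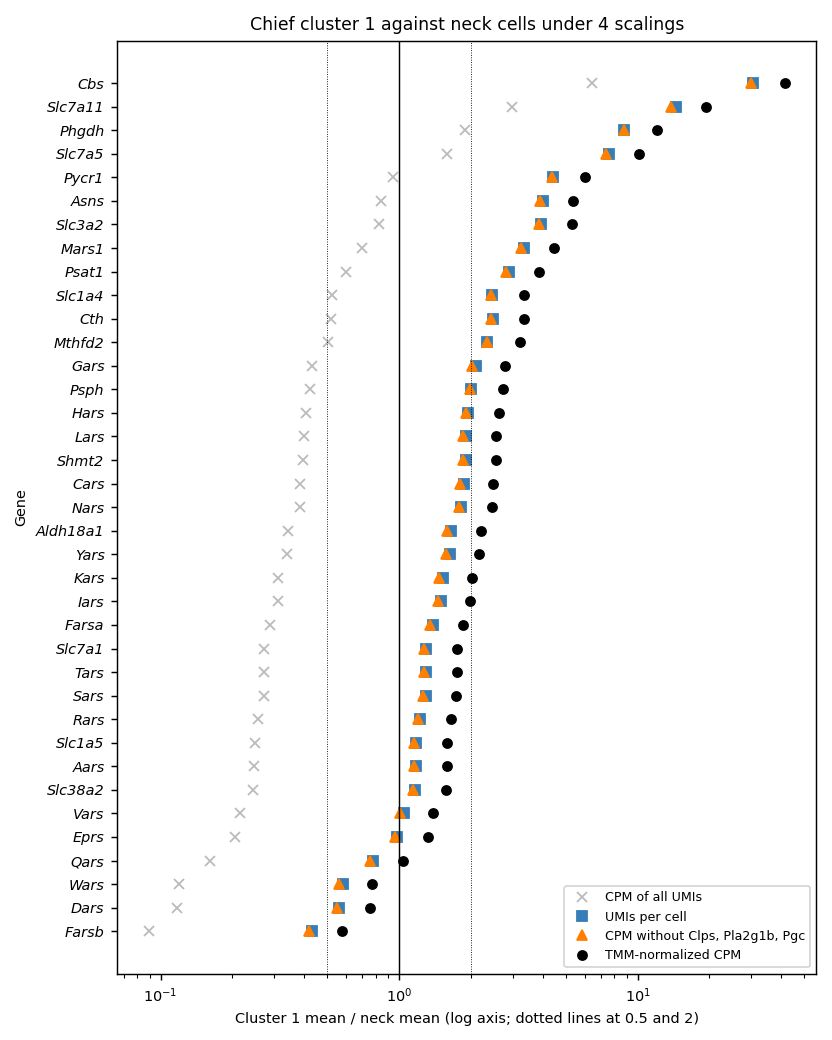
Ratio of the cluster 1 mean to the neck mean (log axis) for each of the 37 genes under 4 scalings, sorted by the ratio on TMM-normalized CPM. Changing the scaling shifts all genes together: against all UMIs (crosses) most ratios are under 1, while on the other 3 scales most are above 1, with Cbs, Slc7a11 (which rests on few neck UMIs), Phgdh and Slc7a5 at the top and Farsb at the bottom.

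**Figure D4:**
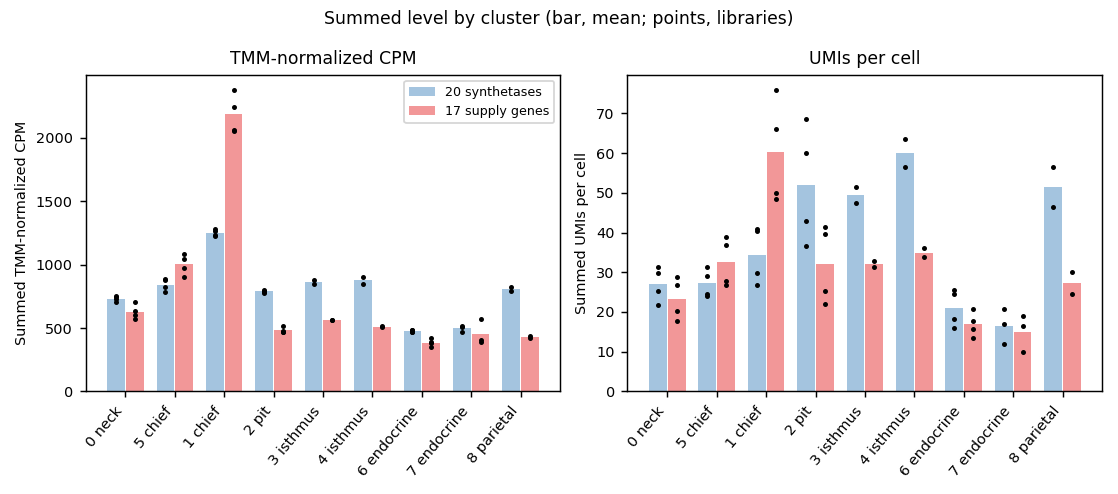
Summed level of the 20 synthetases (blue) and the 17 supply genes (red) in each cluster, as TMM-normalized CPM (left) and UMIs per cell (right), with bars for the mean and points for libraries. The mean of the supply genes exceeds that of the synthetases in chief clusters 1 and 5 and not in the other 7 clusters shown, on both scales, although in Epcam+ 1 the supply genes are also higher in cluster 7. In that library Clps, Pla2g1b and Pgc took 44% of cluster 7 UMIs. Asns weighs heavily in the supply sums. In cluster 1 it gave 20.2, 17.5, 28 and 28.3 UMIs per cell in Epcam+ 1, Epcam+ 2, GFP+ 1 and GFP+ 2. All supply genes together gave 50, 48.5, 66.2 and 76 there. In cluster 5 the supply genes averaged 1001 TMM-normalized CPM and the synthetases 843. Without Asns the supply sum would be under the synthetase sum in every cluster 5 library, and not above it in every cluster 1 library.

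Cluster 5, the smaller chief cluster, held many of these genes at levels between those of neck cells and cluster 1. Here 7 genes, all of them supply genes, were at least 2-fold above neck cells in every library (Slc7a11, Slc7a5, Slc1a4, Asns, Phgdh, Pycr1 and Cbs), which is 18.9% against 2.05% of all genes, and 0 were 2-fold below, against 0.715%. Asns stood at 331, 318, 404 and 368 TMM-normalized CPM, and Cbs at 19.1, 19.5, 20.6 and 23.1, each above all neck libraries and below all cluster 1 libraries. For 25 of 37 genes (67.6%) the cluster 5 level lay between neck cells and cluster 1 in every library, against 15% of all genes. Without the cells called doublets this held for 21 genes (56.8%), against 12.5% of all genes. A gene can lie between only where neck cells and cluster 1 differ. Cluster 1 was 2-fold above neck cells for 48.6% of the 37 genes and 6.33% of all genes, and 2-fold below for 0% and 8.7%. The share lying between is therefore not separate from the contrast of cluster 1 with neck cells. The part of doublets and of mixed neck and chief RNA in these intermediate levels was not tested further.

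On TMM-normalized CPM, few of these genes stood 2-fold apart from neck cells in pit and isthmus cells. In pit cells 1 gene (Slc7a11) was 2-fold above and 3 (Phgdh, Pycr1 and Cbs) were 2-fold below neck cells in every library, against 4.5% and 8.73% of all genes. Phgdh stood at 5.15, 4.42, 2.21 and 3.84 TMM-normalized CPM in pit cells. In isthmus cluster 3, Slc7a11 and Psat1 were above and Pycr1 below, against 8.47% and 7.1% of all genes, with 2 libraries to compare. In isthmus cluster 4, Vars, Slc7a11 and Psat1 were above and Pycr1 below, against 8.7% and 10.1%. Vars, the valine enzyme, stood at 58.7 and 51.7 in cluster 4 and 45.4 and 41.1 in cluster 3, against 20.1 and 24.7 in neck cells of the same libraries. These shares were at or below those of all genes. In UMIs per cell, by contrast, 5 genes (13.5%) were 2-fold above in pit cells, 19 (51.4%) in cluster 3 and 26 (70.3%) in cluster 4, against 14.3%, 28.7% and 42.5% of all genes.

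Endocrine cells of cluster 6 held many of these genes at low levels. In cluster 6, 9 genes (24.3%) were at least 2-fold below neck cells in every library, against 11.7% of all genes, and 2 (Slc7a5 and Cbs) were 2-fold above, against 15%. Those below were the synthetases Farsb, Nars and Tars, the glutamine carrier Slc1a5, and Asns, Phgdh, Aldh18a1, Pycr1 and Cth. Asns stood at 37.6, 33.5, 31.1 and 27.2 TMM-normalized CPM in cluster 6, under every neck library. Phgdh was close to absent at 0.85, 0.35, 0.71 and 0. In endocrine cluster 7 (3 libraries) 4 genes (10.8%) were 2-fold below neck cells, against 1137 of 13154 genes, and 2 (5.41%) were above, against 1520. Phgdh averaged 12.7 ± 6.55 in cluster 7, near the neck level, and Asns 91.6 ± 31.1. The chief genes Clps, Pla2g1b and Pgc took 30.2% of cluster 7 UMIs on average, and 10.2% of its cells were called doublets. The part of chief RNA in the cluster 7 levels was not tested. Parietal cells (2 libraries, both Epcam+) held Asns at 112 ± 8.78, Phgdh at 2.8 ± 1.39 and Wars at 16.1 ± 1.3. Summed, the synthetases reached 475 ± 8.12 in cluster 6, 805 ± 23.2 in parietal cells and 732 ± 22 in neck cells.

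Related genes outside the set gave context for the chief pattern. Of 20 other amino acid transporters compared, 4 were at least 2-fold above neck cells in cluster 1 (Slc7a8, Slc38a10, Slc36a1 and Slc1a2) and 3 were below (Slc6a6, Slc43a2 and Slc1a3). Of 26 other amino acid and folate genes, 4 were above, Aldh1l2 and Got1 among them, and 1 (Glul, glutamine synthetase) was below. Aldh1l2, a mitochondrial folate enzyme, stood at 44.2 in cluster 1 and 0.87 in neck cells. Among 17 integrated stress response genes compared, 3 were above (Chac1, Nupr1 and Eif4ebp1) and 1 was below. Over all genes, 6.33% were above and 8.7% below. The median log2 ratio was -0.06 for the other transporters and -0.27 for the other amino acid and folate genes, near or under the -0.03 of all genes. For the stress response genes it was 0.64. Chac1, which degrades glutathione, stood at 229 ± 131 TMM-normalized CPM in cluster 1 and 3.62 ± 2.77 in neck cells (SD, n = 4 libraries). Atf4 RNA itself stood at 205 ± 14.3 in cluster 1 and 160 ± 24.9 in neck cells, and at 215 ± 64.3 in pit cells. Ddit3 stood at 138 ± 59.4 in cluster 1 and 85 ± 20.4 in neck cells, and at 111 ± 8.72 in parietal cells (n = 2).

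The promoters of these genes are shown because several share the element that C/EBP-Atf dimers bind. The element was searched as TGATGNAA on both strands (TTNCATCA on the other strand) in 300-base windows from 250 bases before to 50 after each RefSeq transcription start on GRCm38.p6. Of the 37 genes 27 had a window, and 10 did not (Cars, Hars, Lars, Nars, Rars, Vars, Wars, Slc7a5, Slc1a5 and Cth). The element was present in 9 of 27 (33.3%), in contrast to 361 of 12762 measured genes with a window (2.83%) and 3.97% of all 32851 windows. It was present in 5 of 13 synthetases and 4 of 14 supply genes. Of the 12 genes with a window that were 2-fold above neck cells in cluster 1, 6 held it (Gars, Yars, Slc7a11, Slc1a4, Asns and Pycr1), and of the other 15, 3 did (Aars, Iars and Tars). Phgdh and Cbs, which had among the highest chief ratios, did not. A match of 8 letters is a description and not evidence of binding. Asns lies at chr6:7675169-7693254 on the minus strand (GENCODE vM21, GRCm38). RefSeq places the start of its transcript further inside that span, and the 250 bases before the RefSeq start (chr6:7693210-7693459, minus strand) are given here 5′ to 3′ with the element in capitals, its first base 23 bases before the start.
Asns: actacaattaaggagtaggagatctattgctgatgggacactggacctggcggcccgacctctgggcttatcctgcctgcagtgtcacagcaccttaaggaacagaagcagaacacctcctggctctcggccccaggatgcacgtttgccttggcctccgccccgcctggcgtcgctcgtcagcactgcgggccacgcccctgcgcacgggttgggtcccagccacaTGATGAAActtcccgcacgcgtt

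Further matches are given with 10 bases on either side, 5′ to 3′ on the strand of the gene, and the capitals again mark the element. They differ in orientation and in distance from the start.
Pycr1 (chr11:120643834-120643861, minus strand): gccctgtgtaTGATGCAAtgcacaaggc
Slc7a11, farther from the start (chr3:50443662-50443689, minus strand): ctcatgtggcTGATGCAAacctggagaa
Slc7a11, nearer to the start (chr3:50443643-50443670, minus strand): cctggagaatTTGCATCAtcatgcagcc
Slc1a4 (chr11:20332700-20332727, minus strand): gcctcctgcgTTGCATCAtctccagcct
Gars (chr6:55037961-55037988, plus strand): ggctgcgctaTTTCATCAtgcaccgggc
Yars (chr4:129189896-129189923, plus strand): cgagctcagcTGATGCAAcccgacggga
Tars (chr15:11399656-11399683, minus strand): aggagtcccgTTGCATCAgctggttagc
Iars (chr13:49682127-49682154, plus strand): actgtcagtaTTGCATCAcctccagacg
Aars (chr8:111033841-111033868, plus strand): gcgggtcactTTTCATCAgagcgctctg

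The design sets label-retaining GFP+ cells beside the Epcam+ epithelium as a whole, and the sorts were compared within cluster 1. Values in comparisons of the sorts are TMM-normalized CPM within 1 cluster, a different scale from that of the levels across clusters. All 37 genes passed the filter on low counts, and 0 passed the test (edgeR's quasi-likelihood test, two-sided, Benjamini-Hochberg adjusted p under 0.05 over 10146 genes, 9 of which passed, 0.0887%). DESeq2 also called 0, with 1 at an unadjusted p under 0.05. At an unadjusted p under 0.05 there were 5 of 37 genes (13.5%), all higher in GFP+, against 7.97% of all genes. The median log2 fold change was 0.07 for the 37 genes and 0.01 for all genes. In 11 genes (29.7%) both GFP+ libraries stood above both Epcam+ libraries, against 19.3% of all genes, and in 2 genes (5.41%) both stood below, against 18.6%. The 95% interval of the fold change lay within 2-fold for 36 genes and within 1.5-fold for 28.

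Among the 5 genes at an unadjusted p under 0.05, which were singled out after their values were seen, both proline genes appeared. Aldh18a1 stood at 7.34 and 6.64 in Epcam+ 1 and 2 and at 10.1 and 9.62 in GFP+ 1 and 2, a log2 fold change of 0.50 ± 0.12 (SE, edgeR adjusted p = 0.321). Pycr1 stood at 14.8 and 14.8 and at 17.3 and 18.5, a log2 fold change of 0.28 ± 0.10 (SE, edgeR adjusted p = 0.505). In both genes the sorts did not overlap, and neither change passed the threshold, although Aldh18a1 passed where no filter on low counts was used (edgeR adjusted p = 0.0376). The same was true of 2 synthetases. Cars stood at 6.81 and 7.3 in Epcam+ and at 8.95 and 9.8 in GFP+ (log2 fold change 0.41, edgeR adjusted p = 0.430), and Yars at 5.8 and 5.59 and at 7.69 and 7.56 (0.42, edgeR adjusted p = 0.433). The fifth, Slc7a11, rested on 1 library. It stood at 0.84 and 0.99 in Epcam+, 0.89 in GFP+ 1 and 2.48 in GFP+ 2, so GFP+ 1 lay among the Epcam+ libraries, and without GFP+ 2 its log2 fold change went from 0.98 to -0.05. Chac1 and Ddit3 were also highest in GFP+ 2, at 91 and 48.5, where GFP+ 1 had 37.8 and 25.8 and neither Epcam+ library had over 35.8 and 22.4.

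Of the genes with a wide chief contrast, Slc7a5 stood at 6.11 and 8.15 in Epcam+ and 8.25 and 9.93 in GFP+ (log2 fold change 0.35 ± 0.16, SE, edgeR adjusted p = 0.631), a small gap without overlap. Its partner Slc3a2 stood at 40.3 and 51.1 and at 39.3 and 51.8, with overlap. Asns stood at 178 and 169 in Epcam+ and 189 and 190 in GFP+ (log2 fold change 0.13 ± 0.08, SE, edgeR adjusted p = 0.743), with a 95% interval of 0.961 to 1.25-fold, and the GFP+ libraries lay just above the Epcam+ libraries. Phgdh stood at 33.1 and 37.3 and at 32.3 and 41.1, and Cbs at 17.4 and 13.8 and at 15.3 and 15.5, with overlap in both. Mars1 stood at 16.7 and 15.7 and at 18 and 17.8 (interval 0.95 to 1.28-fold), without overlap. Nars stood at 37.2 and 35.9 and at 39.1 and 37.7, also without overlap, and the abundant Slc38a2 at 76.7 and 83.4 and at 76.3 and 90.7, with overlap.

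**Figure D5:**
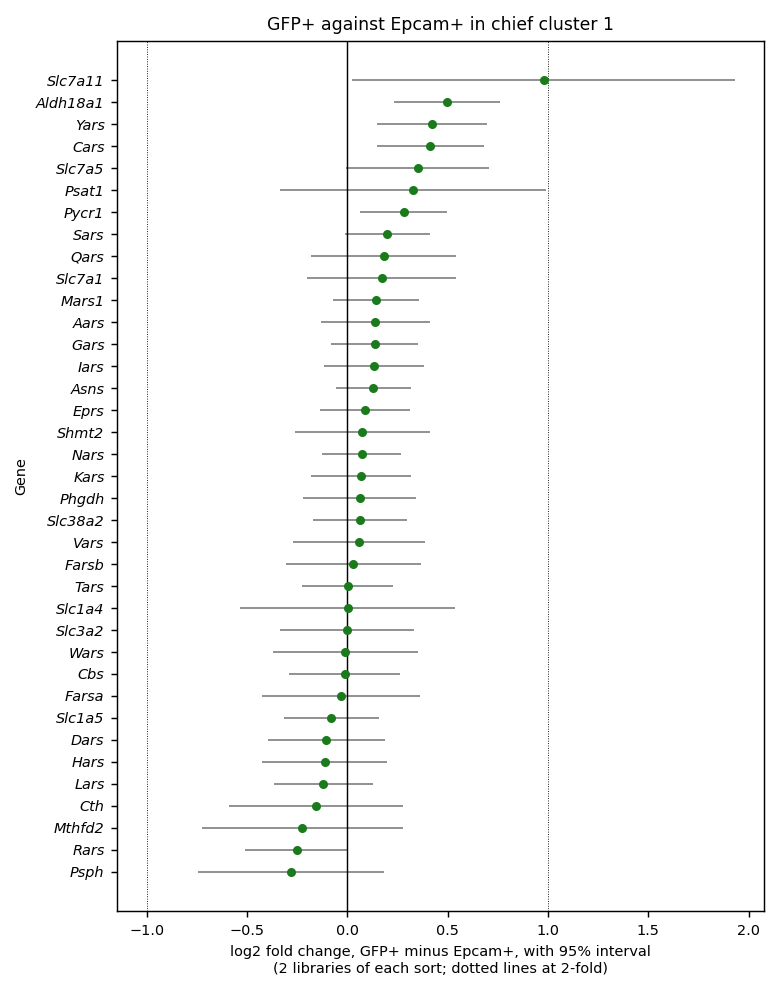
Log2 fold change of GFP+ over Epcam+ in cluster 1 for each of the 37 genes, with the 95% interval from edgeR's quasi-likelihood fit (2 libraries of each sort). Points spread on both sides of 0, with Slc7a11 at the top with the widest interval, and none of the 37 changes passed the adjusted threshold.

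Other gene groups leaned 1 way between the sorts in cluster 1 and are given for context. The 12 heat shock genes all had a log2 fold change above 0, with a median of 0.61, the immediate-early genes did so in 14 of 15 with a median of 0.35, and the integrated stress response genes in 17 of 18 with a median of 0.19. None of these passed the adjusted threshold. At an unadjusted p under 0.05 (edgeR's quasi-likelihood test) there were 11 heat shock, 4 immediate-early and 6 stress response genes, against 7.97% of all genes. GFP+ 2 held the highest summed CPM of each group. Heat shock genes summed to 3253 in GFP+ 2, to 2110 in GFP+ 1 and to 1929 and 1824 in Epcam+. For immediate-early genes the sum was 5256 in GFP+ 2 and 3493 in GFP+ 1, against 3594 and 3511 in Epcam+, and for stress response genes 2157 and 1632, against 1683 and 1610. The 5 pit markers were lower in GFP+ in 5 of 5, and Gkn1 and Gkn2 passed the test, with log2 fold changes of -1.40 and -1.43 (edgeR adjusted p = 0.0348 for both). Summed pit marker CPM was 101 and 141 in Epcam+ and 52.9 and 41.3 in GFP+. Endocrine markers summed to 24.4 and 60.7 in Epcam+ and 99.8 and 47.8 in GFP+, and neck markers to 676 and 222 and to 481 and 138. Immune markers summed to at most 0.448, and tuft and endothelial markers to less. Their part in the values of the 37 genes was not tested. The 15 mitochondrial synthetases, 6 scaffold and charging genes, 16 other transporters and 25 other amino acid and folate genes that could be tested gave 0 calls, with medians of 0.00, 0.06, 0.01 and 0.01.

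The same comparison in neck, pit, cluster 5 and cluster 6 cells also called 0 of these genes (edgeR's quasi-likelihood test, counts at an unadjusted p beside each). In neck cells 36 genes were tested (0.159% of 11287 genes called), and 6 (16.7%) had an unadjusted p under 0.05, against 11.4% of all genes. Of these, Nars, Sars, Phgdh, Aldh18a1 and Pycr1 were higher in GFP+ and Kars was lower. Pycr1 stood at 16.1 and 10.6 in Epcam+ neck cells and at 24.9 and 18.4 in GFP+ neck cells (log2 fold change 0.74 ± 0.25, SE, edgeR adjusted p = 0.364). The chief genes Clps, Pla2g1b and Cblif were higher in the same GFP+ neck cells, with log2 fold changes of 1.18, 0.83 and 1.11, and passed the test (edgeR adjusted p = 0.00604, 0.0142 and 0.0135). Their part in the values of Pycr1, Phgdh and Aldh18a1, which chief cells hold at higher levels, was not tested. With GFP+ 1 left out, Slc3a2, Slc7a1 and Slc38a2 passed the test in neck cells, where GFP+ 2 was then the only GFP+ library. In pit cells 36 genes were tested (0.364% of genes called) and 4 had an unadjusted p under 0.05, against 16% of all genes, with Sars higher and Farsb, Rars and Psph lower. In cluster 5 the test covered 36 genes (0.309% of genes called), of which Slc7a5 alone had an unadjusted p under 0.05, against 8.43% of all genes. It stood at 7.43 and 8.28 in Epcam+ and 17.4 and 12.6 in GFP+ (log2 fold change 0.96 ± 0.28, SE, edgeR adjusted p = 0.275). With GFP+ 2 left out, Slc7a5 passed the test in cluster 5, resting on 1 GFP+ library. In cluster 6 the test covered 30 genes (0.221% of genes called), of which Farsb alone had an unadjusted p under 0.05, against 7.01% of all genes. The GFP+ effect in cluster 1 did not differ past the threshold from that in any of these clusters for any of the 37 genes (edgeR's quasi-likelihood test of the interaction). All genes called in that test made 0% against neck cells, 0.182% against pit cells, 0% against cluster 5 and 0.0317% against cluster 6. At an unadjusted p under 0.05 the interaction picked out 3, 0, 0 and 2 of the 37 genes, in the same order, against 3.6%, 7.94%, 4.97% and 5.05% of all genes.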

How the data were processed

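Single-cell RNA of sorted stomach cells was read as UMIs. For the deposited table of raw counts the authors ran Cell Ranger 3.0.2 against mm10. They excluded cells above 15% mitochondrial counts, outside 1500 to 8000 genes, or with a Ptprc or Pecam1 UMI, and gave each cell a cluster. UMIs were summed per library and cluster where at least 20 cells were present. Sorts were compared within a cluster in edgeR 4.0.16 (R 4.3.3) with TMM factors, filterByExpr, the quasi-likelihood test and Benjamini-Hochberg adjustment at 0.05, without a replicate block. The interaction of sort and cluster had the library as a block. DESeq2 1.42.0 was an alternative. Scrublet (scanpy 1.11.5, each library alone) marked doublets, which were removed only in an alternative chosen after seeing the data. UMIs of this 3′ assay do not scale with transcript length. The edgeR steps were tested on simulated data. In the simulated cluster 1 comparison of the sorts, 28.4% of genes changed 1.5-fold were recovered, 70.1% of those changed 2-fold and 87.9% of those changed 4-fold. The simulation held 67, 67 and 66 genes so changed, while 9 genes passed in the real comparison. With fewer changed genes the adjusted threshold is stricter, so recovery in the real data may be lower. A count of 0 genes called therefore does not exclude small changes. The 37 genes, the other lists and the rules were chosen with earlier results of these data known. All 37 genes are accounted for, the most abundant of each group is named, and from other lists the genes called. Further genes of the other lists, and those at an unadjusted p under 0.05, were named after their values were seen. Promoter windows came from RefSeq on GRCm38.p6 and gene positions from GENCODE vM21, which is not necessarily the annotation release the authors counted on. A few items of the gene lists and promoters are not reported here.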

Additional observations from a re-analysis of the deposited data

Results flagged for a closer look

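The levels across clusters were looked at for a library that stood apart from the other 3 in the same cluster, by Dixon's test in the 5 clusters with 4 libraries. Of 185 sets of 4 libraries tested 16 stood out (8.65%), and chance alone flags about 1 in 20. GFP+ 2 was the library concerned in 10 of the 16. It was high for Slc7a11 in cluster 1 (11.6 TMM-normalized CPM against 3.91 to 4.71 in the others) and in pit cells (5.76), for Slc3a2 and Slc7a1 in neck cells (52.5 and 43.5), for Qars and Tars in pit cells (41.3 and 63.9), for Slc1a5 in cluster 5 (51.9) and for Slc1a4 and Pycr1 in cluster 6 (3.03 and 4.54), and it was low for Iars in neck cells (22.5). Outside cluster 1, GFP+ 2 had the fewest cells of the 4 libraries in each of these clusters. It held 68 neck cells, 27 pit cells, 40 cells of cluster 5 and 26 of cluster 6, so its levels there vary more by sampling. The part of cell number in these flags was not tested. GFP+ 1 was high for Wars (58.6) and low for Psat1 (3.04) in pit cells. Epcam+ 1 was low for Phgdh in cluster 5 (43.9) and the only library with Slc7a11 in cluster 6 (0.427 against 0 in the others). That level is at the floor, where any count at all is flagged. Epcam+ 2 was high for Lars in cluster 1 (85.8) and low for Nars in pit cells (70.4). GFP+ 2 also had the lowest median share of mitochondrial UMIs over its cells, 1.69% against 4.67% to 6.45% in the others. Within cluster 1, which holds 257 of its 444 cells, the share was 1.36% against 1.19% to 1.39%, and the part of this in its values was not tested.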

How the results depend on the processing

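In cluster 1 the count of genes called between the sorts was 0 in the reported test, 2 with no filter on low counts (Slc7a11 and Aldh18a1) and 4 with the replicate block (Cars, Yars, Slc7a11 and Aldh18a1). In neck cells it was 4 with the replicate block (Sars, Slc7a1, Slc38a2 and Pycr1). Over all genes the block raised the number called from 9 to 412 in cluster 1, from 18 to 665 in neck cells, from 40 to 222 in pit cells and from 22 to 98 in cluster 6, and lowered it from 28 to 18 in cluster 5. No filter gave 236 in cluster 1 and DESeq2 19. Same-numbered libraries deviated together with correlations of 0.22, 0.25, 0.20, -0.04 and 0.15 in clusters 1, 0, 2, 5 and 6, but with 2 pairs and no label that ties a number to an animal the libraries share only a number. Leaving out each library in turn gave 0 of the 37 genes in cluster 1, pit cells and cluster 6, 0 to 3 in neck cells (3 without GFP+ 1) and 0 to 1 in cluster 5 (1 without GFP+ 2), the lone library of a sort being assumed to vary like the others. Over all genes it gave 13 to 78 in cluster 1, 7 to 275 in neck cells, 114 to 156 in pit cells, 11 to 226 in cluster 5 and 14 to 110 in cluster 6. Without TMM factors 14 genes were called in cluster 1, 24 in pit cells, 44 in cluster 5 and 38 in cluster 6, and with a mean CPM of at least 20, 1, 25, 17 and 15, and 5 in neck cells. In cluster 1 the log2 fold change ranged over left-out libraries from -0.054 (without GFP+ 2) to 1.43 for Slc7a11, from -0.073 (without GFP+ 2) to 0.17 for Slc38a2 and from -0.18 to 0.16 (without Epcam+ 1) for Cbs. That of Slc38a2 was also -0.0040 without TMM factors and -0.0019 without its top cell in each library. Without GFP+ 2, 12 of the 37 genes changed sign and their median log2 fold change was -0.02.

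Across clusters, counts without TMM factors were 2 above and 21 below neck cells in cluster 1, and 1 above and 1 below in cluster 5. With Clps, Pla2g1b and Pgc left out, 11 were above and 1 below in cluster 1, and 2 below in cluster 4. In UMIs per cell 10 were above in cluster 1, 4 in cluster 5, 5 in pit cells, 19 in cluster 3 (0 below) and 26 in cluster 4, beside 14.3%, 28.7% and 42.5% of all genes above in pit cells and clusters 3 and 4. With at least 50 cells 2 were above in pit cells. Other alternatives kept these counts within 1.5 times, DESeq2 size factors and the removal of doublets included. The cause of these shifts was not tested. The 484 UMIs of Slc7a11 limit what can be said of it.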
